A study of Homo sapiens with 6 samples.

Results

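The histone genes were examined in stable sublines of the C4-2B prostate cancer line that carried either the long noncoding RNA LINC00888, constitutively expressed, or an empty vector. Members were taken by gene name: clustered genes have names that begin with HIST1H to HIST4H, and variant genes have names that begin with H1F, H2AF or H3F3. They came to 60 of the 11844 listed genes, of which 50 were clustered and 10 were variants. C4-2B is a human line derived from LNCaP, and both groups carried pcDNA 3.1 and grew in RPMI1640 with serum. There were 3 libraries with LINC00888 and 3 with the empty vector. Per the labels, quantitative PCR on the sequenced RNA put LINC00888 at 15.27 ± 2.4 (mean ± SD) times the control. LINC00888 reads themselves were not analysed here. Whether libraries within a group came from different cultures or sublines is not stated in the labels, so each p-value measures the spread between these libraries, and any other difference between the sublines cannot be told apart from LINC00888.

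Histones H2A, H2B, H3 and H4 form the octamer that DNA wraps around, and linker histone H1 binds where DNA enters and leaves it. Clustered genes supply most histones in S phase, and their classical mRNAs end in a conserved stem-loop in place of a polyA tail. SLBP binds that stem-loop, and cleavage downstream of it needs the U7 small nuclear ribonucleoprotein. Most variant genes are expressed through the cell cycle, and their mRNAs carry polyA tails. Some clustered genes also make polyadenylated transcripts. These libraries were selected with oligo(dT), so values of clustered genes cover the RNA that this selection recovered. The same holds for the variant H2AFX, whose listed transcript also held the stem-loop.

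The stem-loop is shown for transcripts that the results below turn on, since it marks where the classical histone mRNA ends. It was searched in GENCODE v29 (GRCh38) models as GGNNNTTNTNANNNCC on the transcript strand, with 6 paired stem positions, where G-T pairs were allowed, around 4 loop bases. Capitals mark the 16 matched bases.
HIST1H2AG-201: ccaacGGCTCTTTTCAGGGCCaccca
HIST1H2BD-202: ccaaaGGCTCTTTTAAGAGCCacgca
HIST1H4H-201: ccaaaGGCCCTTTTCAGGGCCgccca
H2AFX-202: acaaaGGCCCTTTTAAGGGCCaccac
The commonest form, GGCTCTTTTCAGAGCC, was in 12 listed transcripts, and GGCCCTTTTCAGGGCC was in 5. Of the 19684 protein-coding genes of the annotation, 118 (0.599%) held the motif in a coding transcript, and 25 of these were members.

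Of 78 listed histone transcripts, 75 were found in GENCODE v29 by identifier, and all 75 had the same genomic span length as in the deposited table. Among the 50 clustered transcripts found, 21 models held the coding sequence alone, and so none of those could hold the stem-loop. Another 21, from 20 genes, held it. In 14 of these 21 the model ran for more than 100 bases beyond the stem-loop, by 1761 bases in HIST1H2AG-201 and at most by 1917, in HIST3H2BB-201. The remaining 8 had untranslated bases but no match. Of the 25 variant transcripts, only H2AFX-202 held the motif, followed by 1044 further bases.

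In the gene table, 58 members reached an FPKM of 0.5 in 3 or more libraries and were tested, 48 of them clustered and 10 variant. FPKM is fragments scaled to model length and to mapped fragments. Those left out, HIST1H2AD and HIST1H3I, had mean FPKM of 0.668 and 0.541 with LINC00888, against 0.283 and 0.294 with the empty vector. Both were listed through the LINC00888 mean alone, so their higher direction was favoured in advance. HIST1H2AD had 1.38 FPKM in LINC00888 library 1, but 0.313 and 0.309 in libraries 2 and 3. With LINC00888, 5 of 48 clustered genes (10.4%) were lower and 0 were higher at an adjusted p under 0.05 (limma, Benjamini-Hochberg). Among the 10 variants, 3 (30.0%) were lower and 0 were higher. Over all 11726 genes tested, 5.46% were lower and 8.02% were higher. That balance of all genes, 941 higher and 640 lower, depended on scaling: median ratio scaling gave 748 higher and 850 lower, and quantile normalization gave 688 and 648. At an unadjusted p under 0.05 in limma, 3 clustered and 0 variant genes were higher, and 8 clustered and 6 variant genes were lower. Over all 11726 genes tested, 2237 were higher and 1420 lower at that cutoff. Unadjusted counts given below are to be read beside these. Leaving out empty vector library 3 left 3 clustered genes called, of which HIST1H3B was higher.

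The median log2 fold change was 0.01 over the clustered genes, with 27 estimates above 0 and 21 below. It was -0.19 over the variants, with 2 above and 8 below, and 0.03 over all genes tested. Listing needed a mean FPKM of 0.5 in 1 group. Of the clustered genes tested, HIST1H2AH, HIST2H2AB, HIST2H3A and HIST2H3C reached it with LINC00888 alone. Their estimates above 0 were thus favoured in advance, and no clustered gene was listed through the empty vector mean alone. Groups did not overlap for 11 of 48 clustered genes (22.9%), 8 of them lower and 3 higher, and for 5 of 10 variants, all lower. HIST1H2AH is among the 3 higher clustered genes. Over all 11726 genes tested, 38.3% did not overlap, with 1733 lower and 2761 higher. Fold changes here are on the scale of log2(FPKM + 0.5), which understates the change of low genes, and each is LINC00888 minus empty vector.

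**Figure D1:**
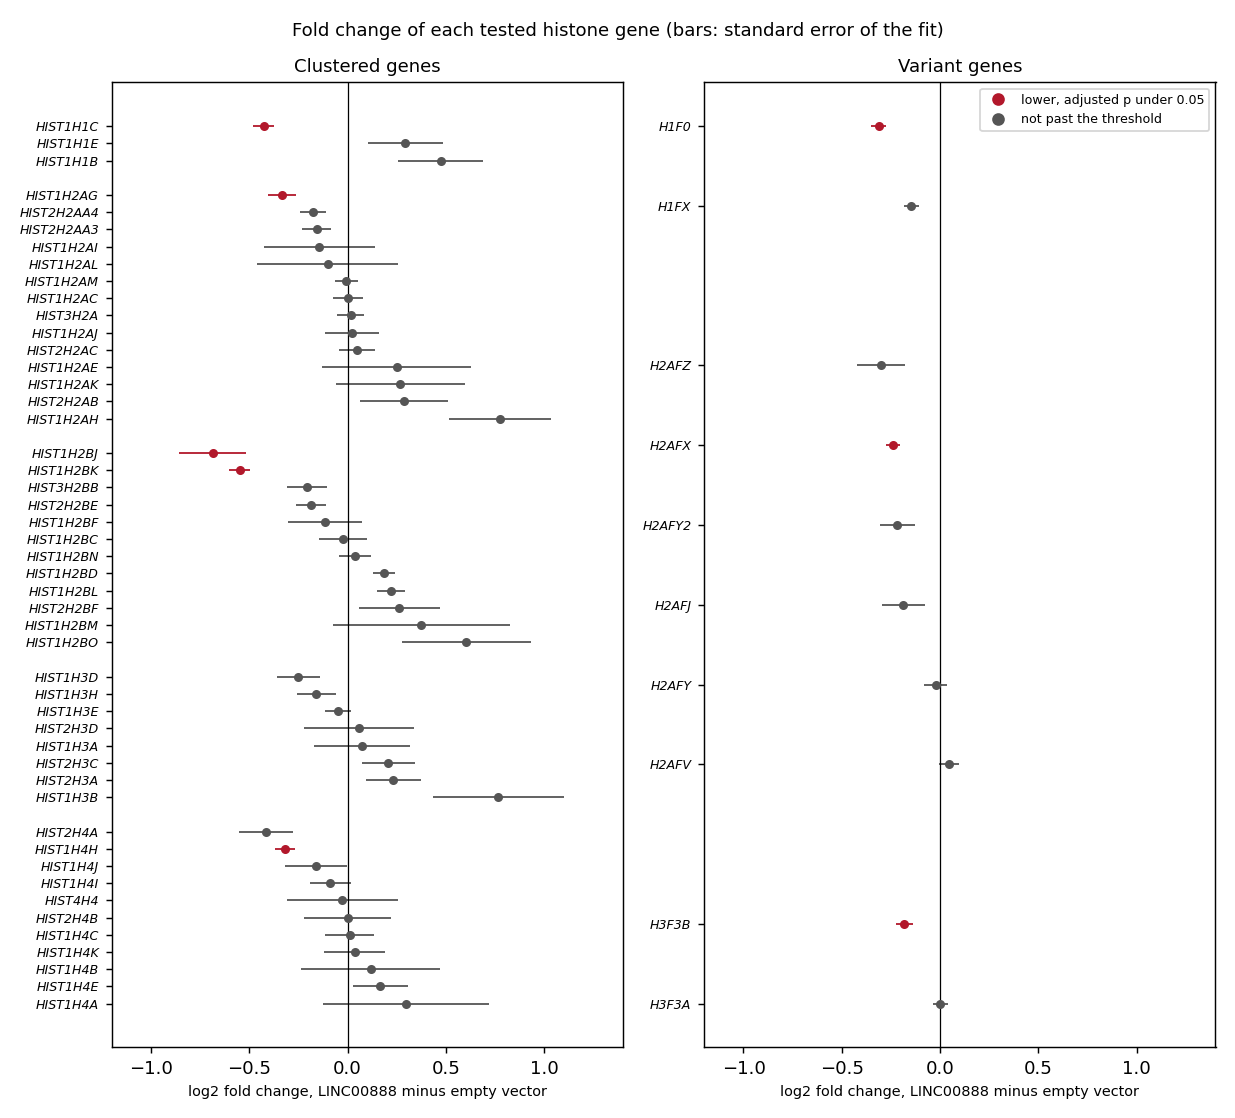
Log2 fold change (x axis, LINC00888 minus empty vector) of each of the 48 clustered genes (left) and 10 variant genes (right) tested, with bars for the standard error, in blocks by histone class. The 8 genes past the threshold (red) all lie below 0, and clustered estimates spread on both sides of 0.

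Of the 4 ranges of expression level compared, lower calls were most frequent in the highest, over all genes as well as among the members. The 9 members with a mean FPKM of at least 40 over the 6 libraries included 5 called lower (55.6%), against 17.1% of the 846 genes at that level. Between 5 and 40, 1 of 13 members was lower, against 6.40% of all genes at that level. Between 1 and 5, 2 of 22 were lower, against 2.38% of all genes. Below 1, 0 of 14 tested were called in limma, with 1 at an unadjusted p under 0.05, against 2.61% of all genes called lower. The sum over the clustered genes was 242, 232 and 252 FPKM with LINC00888, against 269, 281 and 296 with the empty vector, a ratio of 0.858. Without HIST1H2BK and HIST1H1C the other 48 genes summed to 153, 140.2 and 154 FPKM with LINC00888, against 144, 146 and 163 with the empty vector, a ratio of 0.987. These 2 genes therefore held most of the difference in the clustered sum. The 10 variants summed to 613, 629.8 and 625 FPKM with LINC00888 and to 692, 759.7 and 707 with the empty vector, a ratio of 0.865. In bulk RNA, fewer cells that make a transcript and less of it per cell cannot be told apart.

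**Figure D2:**
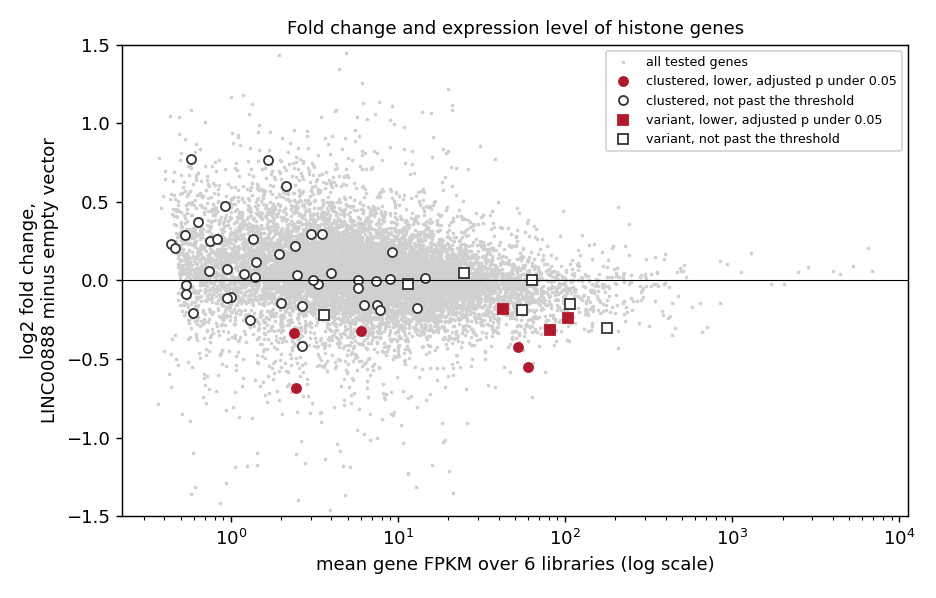
Log2 fold change (y axis, LINC00888 minus empty vector) against mean FPKM over 6 libraries (x axis, log scale) for all tested genes (grey), clustered genes (circles) and variant genes (squares). Called members (filled red) include 5 of the 9 with a mean FPKM of at least 40, and 16 of all genes lie beyond 1.5 on the y axis and are not drawn.

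HIST1H1C, a clustered gene for H1.2 (chromosome 6, 26056015 to 26056656, minus strand, in the deposited positions, whose build is not stated), had 42.6, 44.4 and 46.2 FPKM with LINC00888, against 56.2, 62.4 and 61.0 with the empty vector. The groups did not overlap, and HIST1H1C was 1.35-fold lower with LINC00888 (log2 fold change -0.43 ± 0.05 SE, adjusted p = 0.00792). The other clustered linker genes, HIST1H1B and HIST1H1E, had higher estimates of 0.47 and 0.29 with overlapping groups (adjusted p = 0.196 and 0.354). H1F0, the replacement linker histone H1.0 known from non-dividing and differentiated cells (chromosome 22, 38201100 to 38203443), had 73.4, 70.4 and 72.5 FPKM with LINC00888, against 87.3, 93.0 and 88.8 with the empty vector. It was 1.24-fold lower, without overlap (log2 fold change -0.31 ± 0.04 SE, adjusted p = 0.00727). H1FX, the H1.X variant, had 99.3, 106 and 101 FPKM with LINC00888, against 110.4, 117 and 112 with the empty vector. Its groups did not overlap, yet it missed the threshold (log2 fold change -0.15, adjusted p = 0.0569). It passed under median ratio scaling (0.0438) and equal sum scaling (0.0425). All 5 linker genes together summed to 220.1, 225 and 226 FPKM with LINC00888, against 257, 276 and 267 with the empty vector.

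HIST1H2BK, an H2B gene (chromosome 6, 27114197 to 27114577, minus strand), had the highest level of the clustered genes. It had 46.1, 47.7 and 51.9 FPKM with LINC00888, against 68.8, 72.4 and 72.3 with the empty vector. Every LINC00888 library lay below every empty vector library. It was 1.47-fold lower with LINC00888 (log2 fold change -0.55 ± 0.05 SE, adjusted p = 0.00421). The calls of HIST1H2BK, HIST1H1C and H1F0 were kept in each of the 15 alternatives run, leave-one-out fits included. HIST1H2BJ, another H2B gene (chromosome 6, 27093676 to 27100529, minus strand), was lower at a far smaller level, with 1.87, 1.55 and 1.82 FPKM with LINC00888, against 3.92, 2.30 and 3.29 with the empty vector. Its groups did not overlap, but the empty vector libraries spread widely (log2 fold change -0.69 ± 0.17 SE, adjusted p = 0.0498). The call of HIST1H2BJ held without empty vector library 2 (0.0227), and was lost when any one of the others was left out (0.0919 to 0.134).

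Of the other 10 H2B genes, 4 had lower and 6 had higher estimates, and 0 passed the threshold in limma, with 3 at an unadjusted p under 0.05. HIST1H2BD, among the 5 highest clustered genes, had 9.90, 9.55 and 9.98 FPKM with LINC00888, against 8.69, 8.04 and 9.05 with the empty vector. Its groups did not overlap and its estimate was higher (log2 fold change 0.18, adjusted p = 0.0794). With HIST1H2BK included, the H2B sum was 78.1, 77.8 and 85.0 FPKM with LINC00888, against 99.7, 101 and 107 with the empty vector, a ratio of 0.780. Without HIST1H2BK the other 11 H2B genes summed to 32.0, 30.1 and 33.1 FPKM with LINC00888, against 30.9, 28.9 and 34.7 with the empty vector, a ratio of 1.01.

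The promoters of HIST1H2BK and HIST1H2BJ are shown because they were the H2B genes that were lower and their upstream sequences are alike. The 150 bases before the RefSeq start are given 5′ to 3′ on the gene's strand (RefSeq, GRCh38.p14), at chr6:27146859-27147008 and chr6:27132796-27132945, both on the minus strand. Capitals mark matches on either strand to ATTTGCAT (the octamer bound by POU2F1), TATAAA and CCAAT.
HIST1H2BK: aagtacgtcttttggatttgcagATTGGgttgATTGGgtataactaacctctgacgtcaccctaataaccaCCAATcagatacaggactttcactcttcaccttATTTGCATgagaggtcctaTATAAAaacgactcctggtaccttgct
HIST1H2BJ: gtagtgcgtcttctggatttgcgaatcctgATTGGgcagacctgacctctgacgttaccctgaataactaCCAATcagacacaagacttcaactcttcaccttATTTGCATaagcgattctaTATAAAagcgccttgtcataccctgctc
Aligned end to end, 79.3% of these bases were identical, the highest of 55 pairs among the 11 H2B promoters found (median 50.7%). The next pair, HIST1H2BL and HIST1H2BM, was nearly as alike at 76.0%, and both had higher estimates (0.22 and 0.37) without a call. The listed coding models of HIST1H2BK and HIST1H2BJ, of 381 bases, differed at 30 positions. No window of 150 bases in either gene's transcript models was shared with another gene.

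RefSeq promoters were found for 54 of the 60 members. The 250 bases before the start held the octamer in 17 of 45 clustered genes, against 1.63% of 35116 promoters in the table. It was in 7 of 11 H2B and 9 of 14 H2A genes, and in 0 of 9 H4 genes. TATAAA was in 30 of the 45 (10.7% of all promoters) and CCAAT in 37 (32.0% of all). Of the 7 called genes with a promoter, 4 held the octamer: HIST1H2BK, HIST1H2BJ, HIST1H2AG and the variant H3F3B. The windows of HIST1H2AG and HIST1H2BJ overlap, and the HIST1H2AG match is the HIST1H2BJ site, so 1 site counts for both genes. Windows of other head-to-head genes can overlap likewise, and HIST1H2AD and HIST1H3D have the same window, so these counts are not of separate sites. These matches describe sequence and are not measured binding. POU2F1 itself is in the list of processing and transcription factors below.

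HIST1H2BK and HIST1H2BJ each lie head to head with an H2A gene, HIST1H2AH and HIST1H2AG. HIST1H2AG (chromosome 6, 27100821 to 27103070, plus strand) starts 292 bases from HIST1H2BJ and was lower as well. It had 2.17, 2.14 and 1.88 FPKM with LINC00888, against 2.82, 2.67 and 2.69 with the empty vector, without overlap (log2 fold change -0.33 ± 0.07 SE, adjusted p = 0.0297). The call of HIST1H2AG was lost whichever of the 6 libraries was left out (adjusted p between 0.0690 and 0.0827). HIST1H2AH starts 331 bases from HIST1H2BK and had an estimate in the other direction. It had 1.13, 0.551 and 0.870 FPKM with LINC00888, against 0.293, 0.0711 and 0.536 with the empty vector without overlap (log2 fold change 0.77, adjusted p = 0.107), and is named after its values were seen. HIST1H2AH was listed through its LINC00888 mean alone, so its direction was favoured in advance. In the other 7 of 9 divergent pairs with starts within 500 bases, no gene passed the threshold.

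The remaining H2A clustered genes gave no call. HIST3H2A, among the 5 highest clustered genes, had 14.4, 13.8 and 15.8 FPKM with LINC00888 and 14.2, 13.7 and 15.5 with the empty vector (log2 fold change 0.01, with a sign that turns under median ratio scaling, adjusted p = 0.910). HIST2H2AA4 had 12.7, 12.1 and 11.6 FPKM with LINC00888, against 12.7, 14.8 and 13.8 with the empty vector, without overlap (log2 fold change -0.18, adjusted p = 0.131). All 150-base windows of its model occur in transcripts of another gene, so its reads cannot be assigned to it alone. Such sharing touched 12 clustered transcripts, 10 of them in over 50% of their windows, and none of the genes called. It also touched 8 variant transcripts, of H2AFV and H3F3A, 0 of them in over 50% of their windows.

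Clustered H3 genes were low, with a median of 1.13 FPKM over 8 tested, and 0 passed the threshold in limma in either direction, with 0 also at an unadjusted p under 0.05. HIST1H3B had 1.83, 2.21 and 2.46 FPKM with LINC00888, against 0.602, 0.825 and 2.10 with the empty vector. Empty vector library 3 overlapped the LINC00888 libraries (log2 fold change 0.77, adjusted p = 0.186). Without it the estimate for HIST1H3B was 1.13 with an adjusted p of 0.0237. HIST1H3B is likewise named after its values were seen. Among H4 genes, HIST1H4H (chromosome 6, 26277837 to 26285866, minus strand) was lower, with 5.03, 5.36 and 5.45 FPKM with LINC00888, against 6.67, 6.59 and 6.85 with the empty vector. Its groups did not overlap (log2 fold change -0.32 ± 0.05 SE, adjusted p = 0.0151). The call of HIST1H4H was lost when LINC00888 library 1 (0.0529) or empty vector library 3 (0.0580) was left out.

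**Figure D3:**
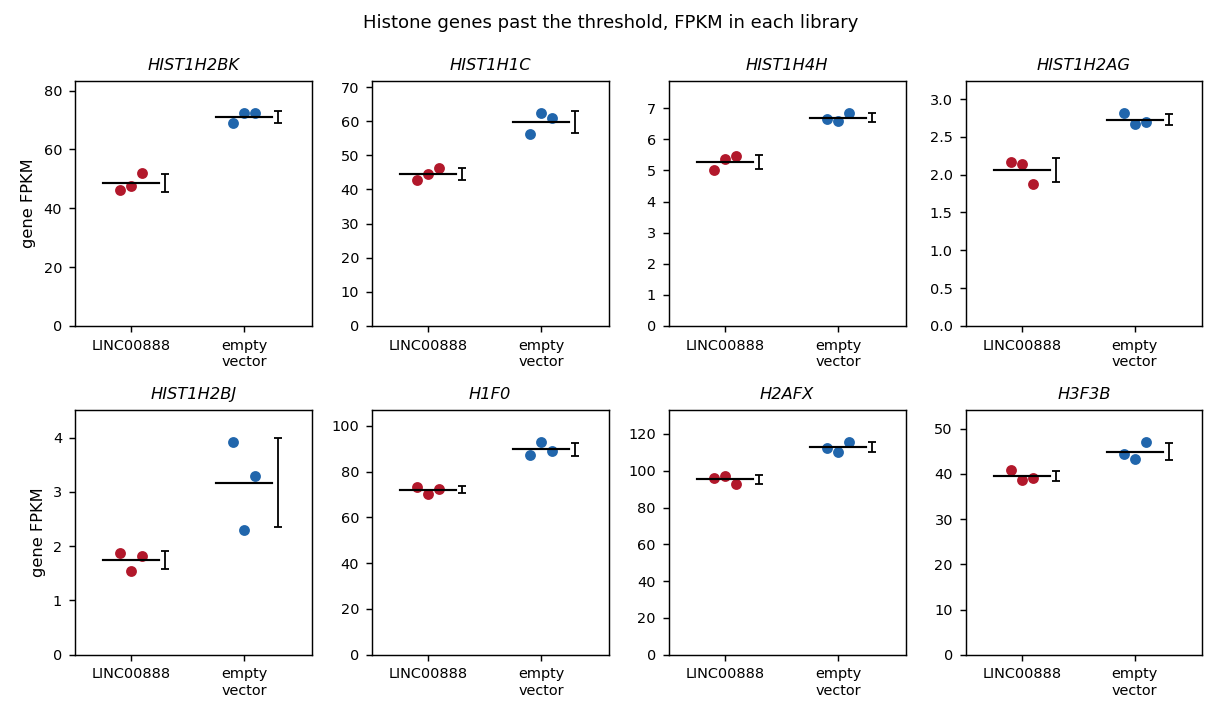
FPKM (y axis, from 0) of the 8 histone genes past the threshold in the 3 LINC00888 libraries (red, left) and the 3 empty vector libraries (blue, right), with group means (lines) and SD (bars). In every panel the LINC00888 libraries lie below the empty vector libraries, closest relative to level in H3F3B, at 40.8 against 43.4 FPKM.

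The 5 clustered genes that were lower all lie in the HIST1 cluster on chromosome 6, where 34 genes were tested (14.7% lower, against 5.46% of all genes). In the HIST2 cluster on chromosome 1, 0 of 11 passed in limma, with 3 lower at an unadjusted p under 0.05 (HIST2H2BE, HIST2H2AA4 and HIST2H4A). HIST2H2AA4 shares its windows with another gene, as given above, and sharing could not be checked for HIST2H4A, which had no listed transcript. By gene model, 2 of 18 tested genes with coding sequence alone were lower, 2 of 20 with a stem-loop in a listed transcript, and 1 of 5 with untranslated bases and no stem-loop. The same 5.46% of all genes is the share to set beside these counts, and the difference between model types was not tested. The models of HIST1H2BK and HIST1H1C hold the coding sequence alone, so these tables do not show where their recovered transcripts ended.

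The 37 clustered genes with a mean FPKM under 5 differed between libraries of the same group. Empty vector library 3 was the highest of its group in 27 of them, and LINC00888 library 2 was the lowest of its group in 20. Relative to each gene's mean over 6 libraries, the median deviation on the log2 scale was 0.17, -0.12 and 0.11 in LINC00888 libraries 1 to 3, against -0.15, -0.08 and 0.16 in empty vector libraries 1 to 3. Each group thus held libraries with medians above and below 0. These genes include HIST1H2AD, HIST1H2AH, HIST1H3I, HIST2H2AB, HIST2H3A and HIST2H3C, listed through the LINC00888 mean alone. For them, higher deviations with LINC00888 were favoured in advance.

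**Figure D4:**
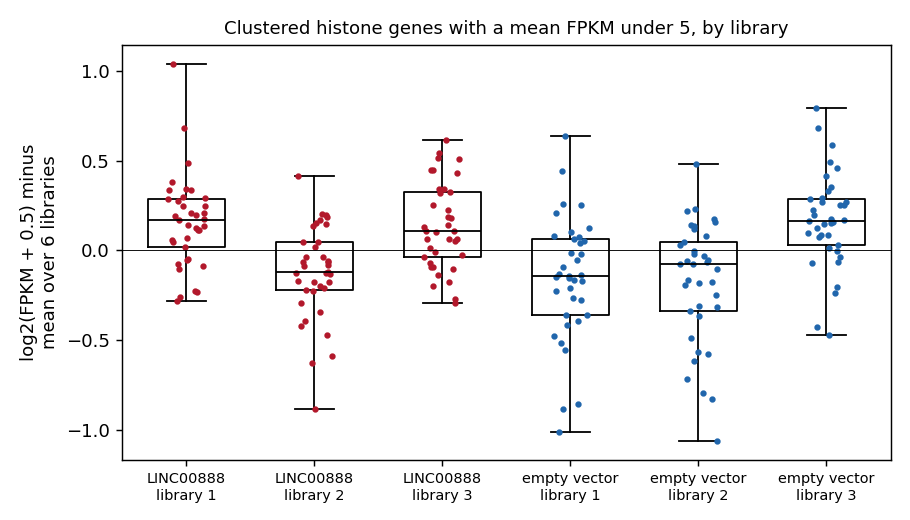
Deviation of each of 37 clustered genes with a mean FPKM under 5 from its own mean over 6 libraries (y axis, log2(FPKM + 0.5)), by library (x axis), with LINC00888 in red and empty vector in blue. Boxes give quartiles and median, and whiskers the extremes. Genes listed through the LINC00888 mean alone are included. LINC00888 library 2 and empty vector libraries 1 and 2 have medians below 0.

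Among the H2A variants, H2AFX, whose product H2A.X is phosphorylated at DNA breaks (chromosome 11, 118964564 to 118966177), had 96.1, 97.2 and 92.6 FPKM with LINC00888, against 112, 110.3 and 116 with the empty vector. It was 1.18-fold lower, without overlap (log2 fold change -0.24 ± 0.04 SE, adjusted p = 0.0118). The call of H2AFX was lost under quantile normalization (0.0816). H2AFZ, which encodes H2A.Z.1 found at promoters, was the highest member. It had 147, 158 and 171 FPKM with LINC00888, against 173, 232 and 186 with the empty vector. The groups did not overlap but nearly touched, and the empty vector libraries spread widely (log2 fold change -0.30 ± 0.12 SE, adjusted p = 0.158). H2AFV, which encodes H2A.Z.2, had 25.9, 24.8 and 24.8 FPKM with LINC00888, against 24.2, 25.9 and 23.1 with the empty vector, with overlap (adjusted p = 0.588).

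H2AFJ, the H2A.J variant, had 54.4, 57.2 and 43.3 FPKM with LINC00888, against 61.7, 58.7 and 55.2 with the empty vector. LINC00888 library 3 was low and the groups overlapped (log2 fold change -0.19, adjusted p = 0.301). Both macroH2A genes, whose products carry a large macro domain and are known from silent chromatin, gave no call. H2AFY had 11.96, 11.4 and 10.8 FPKM with LINC00888, against 11.5, 12.3 and 11.0 with the empty vector, with overlap (adjusted p = 0.832). H2AFY2 had 3.09, 3.46 and 3.31 FPKM with LINC00888, against 3.43, 4.13 and 4.17 with the empty vector, and LINC00888 library 2 overlapped empty vector library 1 (adjusted p = 0.150).

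H3F3A and H3F3B encode the same H3.3 protein, the H3 form deposited outside replication, from separate genes. H3F3B (chromosome 17, 73772515 to 73781974) had 40.8, 38.7 and 39.1 FPKM with LINC00888, against 44.3, 43.4 and 47.1 with the empty vector. It was 1.14-fold lower, without overlap (log2 fold change -0.18 ± 0.04 SE, adjusted p = 0.0443). The call of H3F3B was lost whichever of the 6 libraries was left out (adjusted p between 0.0620 and 0.120). H3F3A had 61.8, 63.1 and 66.6 FPKM with LINC00888, against 63.9, 63.0 and 64.4 with the empty vector. These groups overlapped (log2 fold change 0.00 ± 0.04 SE, adjusted p = 0.992). The difference between the H3.3 genes was not tested. CENPA, the centromeric H3 variant outside the name rule, had 8.12, 8.34 and 7.95 FPKM with LINC00888, against 8.64, 7.72 and 8.92 with the empty vector, with overlap (adjusted p = 0.670).

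The transcript table gave fewer calls, with 0.379% of 26941 transcripts past the threshold in either direction. Of 75 histone transcripts tested, 1 passed, HIST1H2BK-201, the only listed transcript of its gene, with the gene's own values (adjusted p = 0.0397). It missed the threshold whichever of the 6 libraries was left out. Of the 8 genes with at least 2 listed transcripts, HIST1H4H had 8.54, 8.91 and 7.35 FPKM for HIST1H4H-201 with LINC00888, against 12.2, 10.1 and 15.8 with the empty vector (adjusted p = 0.354). HIST1H4H-204, which extends 630 bases beyond the same stem-loop, had 2.09, 0.293 and 0.430 FPKM with LINC00888, against 3.46, 3.07 and 3.60 with the empty vector (log2 fold change -1.64, adjusted p = 0.326). Neither overlapped, and neither passed.

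HIST1H2BD has a listed model with the stem-loop and another without it. HIST1H2BD-202 ends 39 bases after the stem-loop and had 3.96, 3.42 and 1.93 FPKM with LINC00888, against 3.49, 2.45 and 2.93 with the empty vector. HIST1H2BD-201 is spliced, has 2 exons and no stem-loop, and had 8.44, 8.40 and 9.81 FPKM with LINC00888, against 7.40, 7.33 and 8.15 with the empty vector (adjusted p = 0.536). The model without the stem-loop was thus higher on the FPKM scale in each library. Because the libraries were selected with oligo(dT), these values do not compare the amounts of the mRNA forms in the cells. HIST1H2BJ-201, the leading HIST1H2BJ transcript, had 0.965, 1.06 and 1.21 FPKM with LINC00888, against 3.31, 1.70 and 1.62 with the empty vector (adjusted p = 0.437). HIST1H2BN-203 averaged 1.11 FPKM with LINC00888 and 1.04 with the empty vector. Among variants, the leading transcripts were H2AFV-202 (31.6 FPKM with LINC00888 against 35.0 with the empty vector), H2AFY-201 (38.8 against 41.3), H3F3A-203 (134 against 140.2) and H3F3B-201 (68.4 against 79.6), with adjusted p of 0.604, 0.825, 0.679 and 0.408.

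The gene value equalled the sum of its listed transcripts within 0.1% in 41 of the 58 member genes with a listed transcript, was below it in 13 and above it in 4. HIST2H4A and HIST2H4B had no listed transcript, so window sharing was not checked for them. Overlap with other genes on the same strand in GENCODE v29 touched 8 of 57 members found there, among the called genes only H3F3B, which overlaps MIR4738. H3F3B also overlaps UNK on the opposite strand.

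The machinery that makes histone mRNA gave 0 calls among 26 genes at an adjusted p under 0.05 in limma, with 5 at an unadjusted p under 0.05 and 1, LSM10, called under median ratio scaling. LSM10, a U7 ribonucleoprotein subunit, had 23.2, 22.0 and 19.6 FPKM with LINC00888, against 25.3, 25.5 and 26.0 with the empty vector (log2 fold change -0.24, adjusted p = 0.0540), and is named for that change. NPAT, the coactivator of clustered histone genes, had 3.95, 3.57 and 3.48 FPKM with LINC00888, against 3.44, 3.12 and 3.68 with the empty vector (adjusted p = 0.480). SLBP had 31.1, 28.7 and 27.9 FPKM with LINC00888, against 28.5, 27.8 and 31.9 with the empty vector (adjusted p = 0.950). Both overlapped. The median log2 fold change of the 26 was 0.01.

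Of 43 histone chaperones and exchange factors, 4 were lower (9.30%) and 1 was higher with LINC00888. Over all genes tested, 5.46% were lower and 8.02% higher. The median log2 fold change of the 43 was 0.00. SET, part of the INHAT complex that binds histone tails, had 135, 139 and 138 FPKM with LINC00888, against 147, 162 and 159 with the empty vector (adjusted p = 0.0470). NAP1L1, an H2A-H2B chaperone, had 36.1, 35.6 and 36.9 FPKM with LINC00888, against 42.9, 46.3 and 39.8 with the empty vector (adjusted p = 0.0440). ANP32B, a related acidic chaperone, averaged 157 ± 2.66 FPKM with LINC00888 and 179.6 ± 10.5 with the empty vector (SD, n = 3 each, limma adjusted p = 0.0457). DNAJC9, an H3-H4 co-chaperone, had 11.5, 11.5 and 11.0 FPKM with LINC00888, against 13.5, 13.1 and 14.0 with the empty vector (adjusted p = 0.0213). CABIN1, a subunit of the HIRA complex that deposits H3.3, was higher, with 9.34, 9.19 and 8.80 FPKM with LINC00888, against 7.93, 7.41 and 7.70 with the empty vector (adjusted p = 0.0296). None of the 5 overlapped between groups, but leaving out single libraries left 0 to 1 genes of this list called. Groups did not overlap for 15 of the 43 (34.9%), 12 of them lower and 3 higher. Of all 11726 genes tested, 38.3% did not overlap, with 1733 lower and 2761 higher. At an unadjusted p under 0.05 in limma, 11 of the 43 were lower and 2 higher.

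Since clustered histone mRNA follows DNA synthesis, replication genes were set beside it. Of 24, 1 was lower, CDC6, which loads the MCM helicase at origins, with 16.7, 16.3 and 17.3 FPKM with LINC00888, against 19.3, 19.2 and 19.2 with the empty vector (adjusted p = 0.0237). That is 4.17% of the 24, against 5.46% of all genes tested. At an unadjusted p under 0.05 in limma, 7 of the 24 were lower and 2 higher. Over all 11726 genes tested, 1420 were lower and 2237 higher at that cutoff. Groups did not overlap for 8 of the 24 (33.3%), 7 of them lower and 1 higher. For all genes the share was 38.3%, with 1733 lower and 2761 higher. The median log2 fold change of the 24 was -0.03, with 16 estimates below 0. The adjusted p of CDC6 exceeded the threshold in 5 of 6 leave-one-out fits, up to 0.0803.

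Across the series, the listed genes summed to between 211150 and 217640 FPKM per library, with 18.4 to 19.7% from the 13 mitochondrially encoded genes with LINC00888 and 17.6 to 18.4% with the empty vector. All 10 luminal prostate markers were listed, against 2 of 8 fibroblast, 1 of 7 leukocyte and 1 of 6 endothelial markers, the highest of these being COL1A1 at 2.87 FPKM with LINC00888 and 3.06 with the empty vector. PDGFRB, a fibroblast marker, was higher, at 0.650 FPKM with LINC00888 against 0.308 with the empty vector (adjusted p = 0.0372), and the part of such cells in the histone values was not tested. Sequencing depth is unknown, since the tables hold no counts.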

How the data were processed

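RNA was measured by strand-specific, oligo(dT)-selected, paired-end sequencing (150 cycles) of 3 LINC00888 and 3 empty vector libraries. Tools listed in the submitters' processing notes are StringTie, HISAT2, cutadapt and FastQC (no versions given), and the 1 build listed is GRCm38, of mouse. Identifiers in the tables are human, and 11717 of them for genes end in the GENCODE suffix for annotation mapped to GRCh37. The build of the deposited positions is not stated in the sources used here. The deposited values are FPKM, per the file headers. Listed genes have a mean FPKM of at least 0.5 in 1 or both groups, so genes low in both groups were not measured here. Depth is unknown.

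Features were kept where 3 or more of 6 libraries reached an FPKM of 0.5. The groups were compared on log2(FPKM + 0.5) with limma 3.58.1 in R 4.3.3 (lmFit, eBayes with trend and robust), two-sided. Benjamini-Hochberg adjustment ran over all features kept, with a threshold of 0.05. The script was checked on simulated data. Folds are ratios of mean FPKM. Members, gene lists and tests were chosen with earlier results of these data known. The text names each variant, each clustered gene past the threshold, the 5 highest clustered genes, companion genes past the threshold (at most 5 a list), leading transcripts, and CENPA, NPAT and SLBP. Genes said to be named after their values were seen fall outside this rule. Alternatives were other pseudocounts, filters, scalings and variance settings, a replicate block, and leaving out each library.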

Additional observations from a re-analysis of the deposited data

How the results depend on the processing

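HIST1H2BK, HIST1H1C and H1F0 stayed lower and past the threshold under all 15 alternatives, with adjusted p up to 0.0331, 0.0370 and 0.0469. Replicate numbers left no visible pairing over the genes tested: same-numbered libraries had correlations of 0.0377, 0.0222 and -0.0347 in their deviations from group means. Differently numbered libraries had correlations of -0.0816 to 0.0587. Whether libraries were paired by design is not stated in the labels. With the replicate block, 429 of all genes passed (1581 without it), with 2 clustered and 1 variant member, 0 chaperones, 0 transcripts and 0 histone transcripts. Leaving out 1 library gave 536 to 815 genes, 2 to 4 clustered members, 0 to 1 chaperones, 22 to 45 transcripts and 0 histone transcripts. Quantile normalization left 1 variant member. Median ratio scaling gave 1 processing gene, 8 chaperones and 0 histone transcripts. Without trend and robust, 2 chaperones and 0 histone transcripts passed. HIST1H2BJ also missed the threshold with a pseudocount of 1 (0.0522), no filter (0.0502), equal sum scaling (0.0564) and eBayes without trend and robust (0.0529), and H3F3B under quantile (0.116) and equal sum scaling (0.0640) and without trend and robust (0.0718).

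Estimates near 0 changed sign, all far from the threshold. Median ratio scaling gave -0.034 for H3F3A and -0.019 for HIST3H2A, and quantile normalization gave 0.021 for SLBP. Leave-one-out estimates spanned -0.059 to 0.016 for H2AFY, -0.030 to 0.024 for H3F3A, -0.038 to 0.064 for HIST3H2A and -0.053 to 0.051 for SLBP. The causes were not tested. The size of change that could be detected at each level was not tested.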
